A study of Mus musculus with 14 samples.

Results

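Genes of sterol and fatty acid synthesis and of their control by the SREBP transcription factors were examined in repeatedly activated murine Th1 cells (Th1 rep cells) after inhibition of miR-31. The group holds 36 genes, taken by name with earlier results of these data known. Of these, 34 had a probe set that carries 1 gene symbol. All 34 were among the 10916 genes tested, out of 18193 genes with such a probe set. The members comprise 17 sterol synthesis enzymes (16 with a probe set), 5 regulators of SREBP, 4 genes of sterol transport and efflux (3 with a probe set) and 10 genes of the fatty acid branch. Acat2, which makes acetoacetyl-CoA, and Nr1h2, a liver X receptor, were not analysed here. Each gene was read from its brightest probe set over all arrays.

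The cells came from 6 to 10 week old OT-II mice, whose CD4+ T cells carry a transgenic receptor for an ovalbumin peptide. Naive CD4+CD62Lhi cells from spleens and lymph nodes were stimulated in 4 rounds with peptide and irradiated antigen-presenting cells, under IL-12 and anti-IL-4, with IL-2 added in the later rounds. For 1.5 h they were kept in serum-free medium that held 1 µM of an antagomir. This was either Antagomir-31, a synthetic RNA analogue that binds and blocks miR-31, or Antagomir-SCR, an unspecific control. Both oligonucleotides were coupled to cholesterol, so all 14 arrays share this, and its part in the results was not tested. Both treatments were followed by dilution into medium with 10% fetal calf serum, IL-12, anti-IL-4 and IL-2 and by reactivation with plate-bound anti-CD3 and anti-CD28. Affymetrix Mouse 430_2 arrays numbered 14 in all: each treatment had 2 for 36 h, 2 for 48 h and 3 for 72 h. Whether replicates were separate cultures is not given in the sources used here, so the p-values reflect no more than the scatter of these arrays, and that scatter may be technical. Because whole populations were measured, fewer cells of a type and less RNA per cell cannot be told apart.

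Cells make cholesterol from acetyl-CoA through mevalonate, squalene and lanosterol, and they make long-chain fatty acids from malonyl-CoA, which are then elongated and desaturated. SREBP proteins, encoded by Srebf1 and Srebf2, are held in the endoplasmic reticulum by Scap and the Insig proteins while sterols are plentiful. When sterols run low they are cleaved and switch on the genes of uptake and synthesis, with SREBP-2 acting mainly on the sterol branch and SREBP-1 mainly on the fatty acid branch. Liver X receptors act in the opposite situation and switch on the efflux transporters Abca1 and Abcg1. Activated T cells raise both branches when they build membrane for division.

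The mature sequence of the inhibited miRNA is shown because the antagomir is directed against it. RefSeq (GRCm38.p6) places mmu-miR-31-5p at chr4:88910614-88910635 on the minus strand. Capitals mark the seed, bases 2 to 8 of the miRNA. None of the 36 members is in the list of putative miR-31 targets that the study used (0 members).
mmu-miR-31-5p: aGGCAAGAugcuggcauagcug

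Promoters of 28 members were found in RefSeq (GRCm38.p6), as 36 entries that run from 250 bases before to 50 bases after a transcript start. The motifs searched on both strands were TCACNCCAC, a form of the sterol regulatory element bound by SREBP, CACGTG, the E-box, and CCAAT, the box bound by NF-Y, a partner of SREBP. TCACNCCAC stood in 1 of the 36 entries (2.78%), that of Hmgcs1, and in 1.24% of all 32851 promoters. CACGTG stood in 8 entries (22.2%), against 7.15% of all promoters, and belonged to Abca1, Dhcr7, Elovl5, Hsd17b7, Insig1, Sc5d and Scap. CCAAT stood in 22 entries (61.1%), against 37.4%. Neither Elovl6 nor Fads2 held any of these motifs. The 8 members without an entry, which were not searched, were Scd1, Scd2, Sqle, Fads1, Fdps, Fdft1, Stard4 and Abcg1. The matches are letters in a window and not mapped sites, and a missing match says only that these letters are not in that window. Insig1 and Srebf2 are printed because both genes fell with Antagomir-31 at 72 h, and Hmgcs1 because it alone among the member entries held TCACNCCAC. Capitals mark any of the motifs on either strand, and in these sequences no motif overlapped another. The windows are chr5:28071162-28071461 (plus strand) for Insig1, chr15:82147019-82147318 (plus) for Srebf2 and chr13:119690101-119690400 (plus) for Hmgcs1.
Insig1: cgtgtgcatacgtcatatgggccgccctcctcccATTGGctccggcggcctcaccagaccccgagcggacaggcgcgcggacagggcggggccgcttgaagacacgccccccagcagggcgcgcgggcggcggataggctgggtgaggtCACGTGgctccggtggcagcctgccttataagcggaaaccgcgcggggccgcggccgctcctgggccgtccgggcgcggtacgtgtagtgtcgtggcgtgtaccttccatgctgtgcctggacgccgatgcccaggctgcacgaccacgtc
Srebf2: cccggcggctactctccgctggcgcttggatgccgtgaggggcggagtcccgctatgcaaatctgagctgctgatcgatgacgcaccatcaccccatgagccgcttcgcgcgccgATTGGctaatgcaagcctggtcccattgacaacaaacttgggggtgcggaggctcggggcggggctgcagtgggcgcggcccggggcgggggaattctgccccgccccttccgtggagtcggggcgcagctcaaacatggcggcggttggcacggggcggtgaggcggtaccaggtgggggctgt
Hmgcs1: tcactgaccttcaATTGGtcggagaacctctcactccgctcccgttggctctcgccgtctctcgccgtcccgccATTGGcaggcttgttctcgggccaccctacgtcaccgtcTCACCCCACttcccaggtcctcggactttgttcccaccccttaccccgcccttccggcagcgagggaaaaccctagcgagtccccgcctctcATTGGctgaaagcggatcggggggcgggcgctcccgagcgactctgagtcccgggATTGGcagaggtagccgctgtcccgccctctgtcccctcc

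The deposited values are RMA intensities on a linear scale. The array medians differed by time (36 h, 23.4 to 23.8; 48 h, 21.8 to 22.1; 72 h, 27.9 to 28.4), so treatments were compared within a time and times were compared after quantile normalization of all arrays together. T cell and Th1 markers ran from a mean log2 of 5.82 for Cxcr3 to 13.58 for Ifng, a mean intensity of 12230. Among the markers of other cells the brightest was Ebf1, a B cell marker, at 6.37, which was above Cxcr3. Markers of other cells were dim: the summed intensity of 7 B cell markers was 187 to 247 over the arrays, that of 9 macrophage and monocyte markers 228 to 281, that of 6 dendritic cell markers 144 to 187 and that of 6 adipocyte and hepatocyte markers 109 to 141. Some marker sums moved with treatment. The sum of 11 T cell and Th1 markers at 72 h ran from 21870 to 22460 after Antagomir-31 and from 22630 to 23060 in control cells, and that of the macrophage and monocyte markers was 261 to 269 and 249.7 to 259. The sum of 11 cell cycle markers was lower with Antagomir-31 at 36 h (17940 to 18410 against 18430 to 19120) and at 48 h (17200 to 17270 against 17890 to 18130) and overlapped at 72 h (25330 to 25770 against 25570 to 26000). No gene of these marker lists passed the test between treatments at any time, and the part of these shifts in the results was not tested.

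At 72 h, 7 of the 34 members fell with Antagomir-31 and none rose. They were Insig1 and Srebf2 among the regulators, the squalene epoxidase Sqle, and Scd1, Scd2, Fads2 and Elovl6 in the fatty acid branch, with declines of 14.4% to 32.5%. A gene was called at a Benjamini-Hochberg adjusted p under 0.05 over all genes tested with limma, and by this rule 0.605% of all genes fell and 0.495% rose. The direction was wider than the calls, in a list chosen with earlier results of these data known. The log2 fold change was below 0 in 31 of 34 members, against 53.8% of all genes, and all 3 Antagomir-31 arrays lay below all 3 Antagomir-SCR arrays in 19 members, against 14.6% of all genes. No member lay wholly above, against 9.52% of all genes. At an unadjusted p under 0.05, 16 members were lower, against 10.6% of all genes. Over all genes 54 rose and 66 fell, and this split was 42 and 103 after median centring and 78 and 60 after quantile normalization, while every member called under either scaling was lower. The count of 7 rests on few arrays and on the filter: it dropped to 0 on leaving out replicate 2 or 3 of Antagomir-31 or replicate 3 of Antagomir-SCR, and was also 0 with no filter on dim genes, and 1 when only the 72 h arrays were fitted. Over all genes these settings kept 9 to 14 calls. A stricter filter (a mean log2 of 6 or more) raised it to 12, and a prior variance that follows the mean intensity raised it to 13. Calls over all genes grew too, to 106 higher and 177 lower of 8273 genes and to 180 and 242 of 10916.

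**Figure D1:**
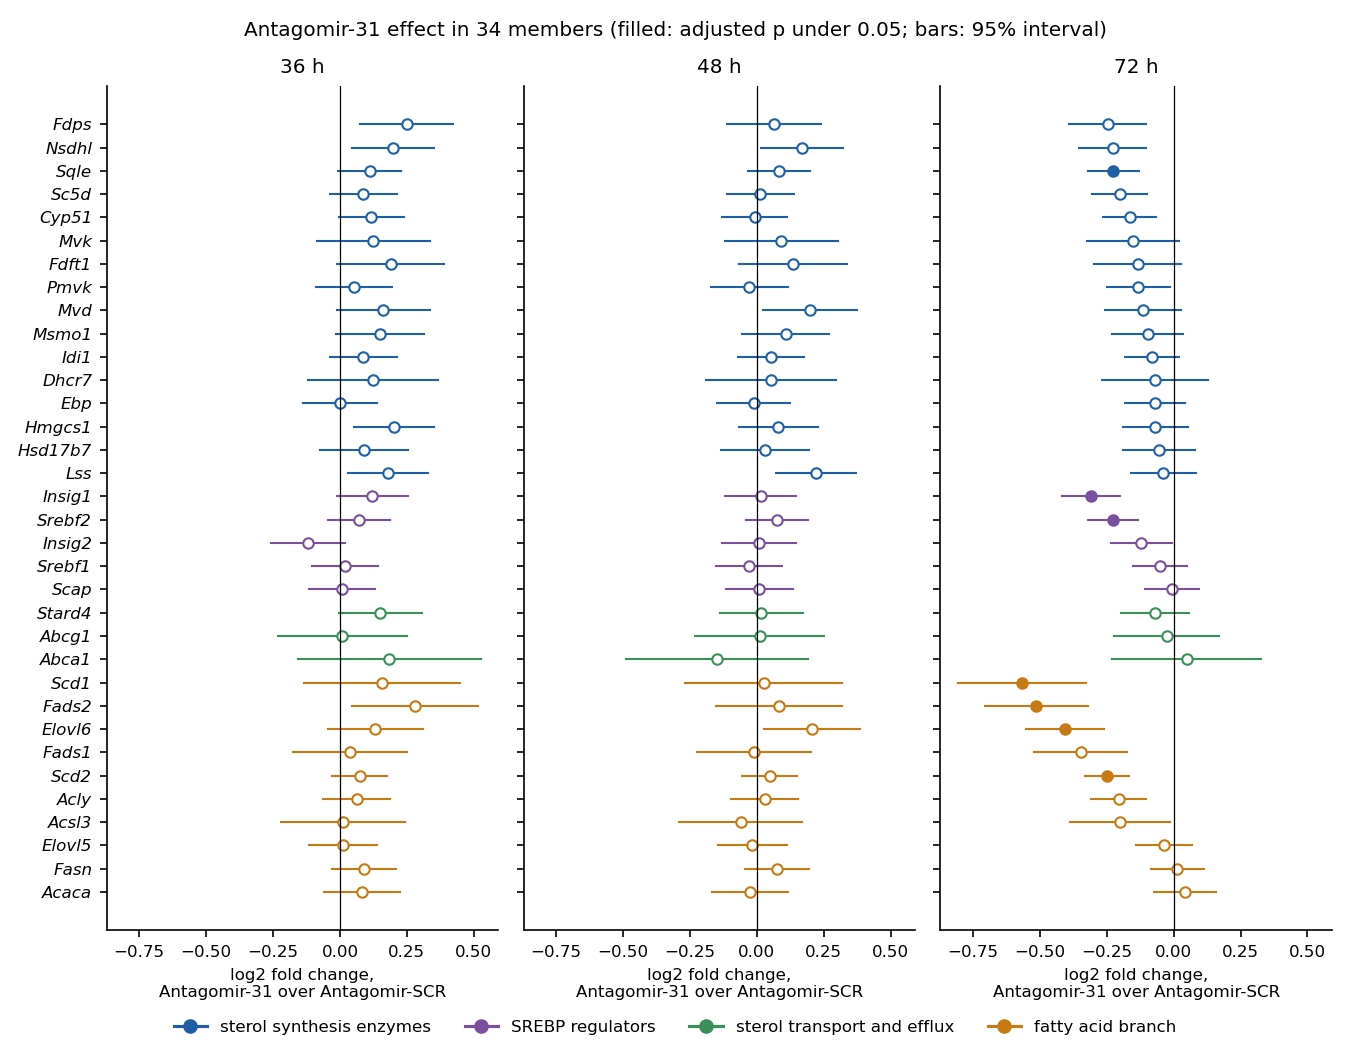
Log2 fold change of Antagomir-31 over Antagomir-SCR (x axis) for the 34 members at 36 h, 48 h and 72 h, with 95% intervals from limma; filled points have an adjusted p under 0.05 and colours give the group of genes. Points lie mostly right of 0 at 36 h, where no member was called, and mostly left of 0 at 72 h, where 7 were called.

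Insig1, which retains SREBP in the endoplasmic reticulum and is itself an SREBP target, had intensities of 271.5, 296 and 280.4 on the Antagomir-SCR arrays at 72 h and of 235, 229 and 221 on the Antagomir-31 arrays. The groups did not overlap. It fell by 0.31 on the log2 scale (SE 0.05, 95% interval -0.42 to -0.20, adjusted p = 0.021), or by 19.3%. Srebf2, the gene of SREBP-2, read 704, 717 and 693 in control cells and 586, 581 and 640.1 with Antagomir-31, again without overlap. It fell by 0.23 (SE 0.04, adjusted p = 0.034), or by 14.5%. Its other bright probe set gave -0.25. Insig2, an Insig protein that is not induced by SREBP in the same way, differed by -0.12 (adjusted p = 0.25), Srebf1 by -0.05 (0.62) and Scap, the escort of SREBP, by -0.01 (0.96), and none of these passed the test. Further bright probe sets of Insig2 gave -0.05 and 0.13.

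Sqle, which oxidises squalene ahead of ring closure, had intensities of 789.9, 841 and 835 in control cells at 72 h and of 688, 695 and 727 with Antagomir-31. All Antagomir-31 arrays were lower. Sqle fell by 0.22 on the log2 scale (SE 0.04, 95% interval -0.32 to -0.13, adjusted p = 0.034), or by 14.4%. All 16 sterol synthesis enzymes had a log2 fold change below 0 at 72 h, from -0.25 to -0.04, but Sqle alone was called. Their median was -0.12 beside -0.01 over all genes. A bright probe set other than the brightest went the other way in Hmgcs1 (0.01), Idi1 (0.10) and Fdft1 (0.03). All Antagomir-31 arrays were lower in 10 of the 16, against 14.6% of all genes. Next in order of p stood Sc5d, a sterol desaturase (-0.20, adjusted p = 0.060), Nsdhl, which removes methyl groups from the sterol ring (-0.23, 0.079), Fdps, the farnesyl diphosphate synthase (-0.25, 0.089), and Cyp51, the lanosterol demethylase (-0.16, 0.097). Fdps read 1923, 2040 and 1940 in control cells and 1603, 1606 and 1769 with Antagomir-31, and Nsdhl read 504, 525 and 517 against 439.5, 430.2 and 451. In both, every Antagomir-31 array was lower although the adjusted p stayed above the threshold. The other enzymes were Hmgcs1, which forms HMG-CoA, Mvk, Pmvk and Mvd of the mevalonate steps, Idi1, Fdft1, Lss, Msmo1, Hsd17b7, Ebp and Dhcr7. Their values ran from -0.15 for Mvk to -0.04 for Lss, with adjusted p from 0.23 upwards.

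In the fatty acid branch the declines that passed the test lay in desaturases and an elongase and ran from 15.9% to 32.5%. Scd1, a stearoyl-CoA desaturase that puts the first double bond into saturated fatty acids, read 330.2, 386 and 301 in control cells and 219.7, 206 and 262 with Antagomir-31. It fell by 0.57 on the log2 scale (SE 0.11, 95% interval -0.80 to -0.33, adjusted p = 0.034), or by 32.5%, and its other bright probe set gave -0.33. Scd2, the related desaturase, read 4917, 5124 and 4989 in control cells and 4240, 4075 and 4330 with Antagomir-31. It fell by 0.25 (SE 0.04, adjusted p = 0.017), or by 15.9%, the lowest adjusted p among the members. Its further bright probe sets gave -0.69 and -0.39. Neither gene had overlapping arrays.

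Fads2, the delta-6 desaturase of polyunsaturated fatty acids, had intensities of 113, 142 and 119.5 in control cells at 72 h and of 88.4, 79.4 and 93.7 with Antagomir-31. It fell by 0.51 on the log2 scale (SE 0.09, 95% interval -0.70 to -0.32, adjusted p = 0.024), or by 29.9%. Elovl6, which elongates palmitate, read 143, 147 and 159.8 against 114, 113 and 112, and fell by 0.41 (SE 0.07, adjusted p = 0.021), or by 24.5%. The other bright probe sets gave -0.46 for Fads2 and -0.18 for Elovl6. In both genes the 3 Antagomir-31 arrays lay together below the controls. Fads1, the delta-5 desaturase, read 131, 122 and 108 against 101.5, 83.6 and 98.4 and differed by -0.35 (adjusted p = 0.058), just short of the threshold. Its other bright probe set gave 0.03. Acly, which supplies cytosolic acetyl-CoA, read 2152, 2271 and 2146 against 1837, 1879 and 1981. It differed by -0.21 (0.058) and Acsl3, an acyl-CoA synthetase, by -0.20 (0.25). Further bright probe sets of Acly gave -0.42 and 0.02.

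Fasn and Acaca, which act in building palmitate, and Elovl5 did not stand apart. Fasn, the fatty acid synthase, read 728, 752 and 708 in control cells at 72 h and 736, 751 and 723 with Antagomir-31, which are overlapping ranges. Its log2 fold change was 0.01 with a 95% interval of -0.08 to 0.11. Acaca, the acetyl-CoA carboxylase, gave 0.04 (interval -0.07 to 0.16) and Elovl5, an elongase of polyunsaturated fatty acids, -0.04 (interval -0.14 to 0.07). Over the 10 genes of the branch, 4 fell (0.605% of all genes), 8 had a log2 fold change below 0 (53.8% of all genes) and in 6 all Antagomir-31 arrays were lower (14.6% of all genes). The branch median was -0.23. Set beside the median of -0.12 in the sterol enzymes, the difference between the branches was not tested.

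**Figure D2:**
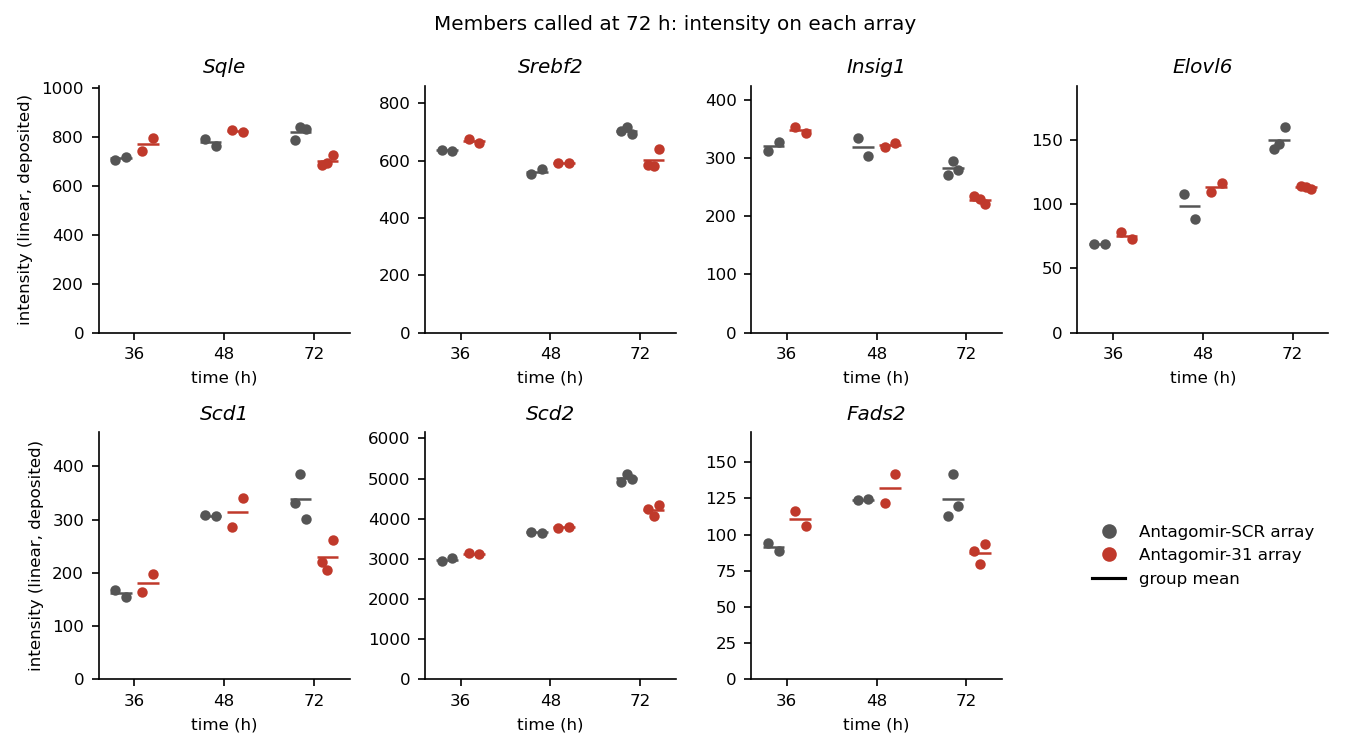
Deposited linear intensity (y axis, from 0) of the 7 members called at 72 h, against time; each point is 1 array and lines are group means. At 72 h the 3 Antagomir-31 points lie below the 3 Antagomir-SCR points in each panel, while at 36 h the Antagomir-31 mean is the higher in all 7.

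Sterol transport and efflux showed no call at 72 h. Abca1, which exports cholesterol to apolipoprotein, read 299.9, 276 and 318 in control cells and 299, 297 and 327 with Antagomir-31, and differed by 0.05 on the log2 scale with an interval of -0.23 to 0.33. Abcg1, which exports cholesterol to lipoprotein particles, gave -0.03 (interval -0.22 to 0.17), and Stard4, a cytosolic sterol carrier, -0.07 (interval -0.20 to 0.06). The arrays of the treatments overlapped in these 3 genes.

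At 36 h no gene of the array passed the test (0% of genes), and the members leaned the other way. Of the 34 members, 33 had a log2 fold change above 0, against 50.6% of all genes, and in 20 both Antagomir-31 arrays lay above both controls, against 15.3% of all genes. This held for 12 of the 16 sterol enzymes. Insig2 alone lay wholly below, against 13.9% of all genes. At an unadjusted p under 0.05, 5 members were higher, against 3.01% of all genes, and none was lower. The median was 0.12 for the sterol enzymes and 0.08 for the fatty acid branch, beside 0.00 over all genes.

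The 5 members with the smallest p at 36 h were Fdps, Hmgcs1, Nsdhl, Fads2 and Lss. Fdps read 1265 and 1270 in control cells and 1457 and 1558 with Antagomir-31, a log2 fold change of 0.25 (SE 0.08, adjusted p = 0.69). Hmgcs1 read 2146 and 2078 against 2485 and 2375 (0.20, adjusted p = 0.78). Fads2 read 94.0 and 88.7 against 116 and 106 (0.28, adjusted p = 0.91). In each of them the 2 Antagomir-31 arrays were the higher, by a difference that is not told from the spread of these arrays once all genes are counted. Nsdhl gave 0.20 (0.87) and Lss, the lanosterol synthase, 0.18 (0.91).

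At 48 h no gene passed either (0%). In 7 members both Antagomir-31 arrays lay above both controls, against 13.5% of all genes, and in Elovl5 both lay below, against 19.7%. At an unadjusted p under 0.05, 4 members were higher, against 2.52% of all genes. Lss read 316 and 289 in control cells and 338 and 366.5 with Antagomir-31 (log2 fold change 0.22, SE 0.07, adjusted p = 0.70). Elovl6 read 108 and 88.7 against 109.5 and 116 (0.21, 0.77). The controls of Elovl6 were far apart, and their upper value came close to the Antagomir-31 values. Mvd, the mevalonate decarboxylase, gave 0.20 (0.78), Nsdhl 0.17 (0.79) and Sqle 0.08 (0.89). The median was 0.07 for the sterol enzymes and 0.03 for the fatty acid branch, beside -0.01 over all genes.

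The 7 members that fell at 72 h had earlier log2 fold changes that did not pass the test. At 36 h and 48 h these were 0.12 and 0.01 for Insig1, 0.07 and 0.08 for Srebf2, and 0.11 and 0.08 for Sqle. In the fatty acid branch they were 0.16 and 0.03 for Scd1, 0.07 and 0.05 for Scd2, 0.28 and 0.08 for Fads2, and 0.13 and 0.21 for Elovl6. All of these values were above 0.

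**Figure D3:**
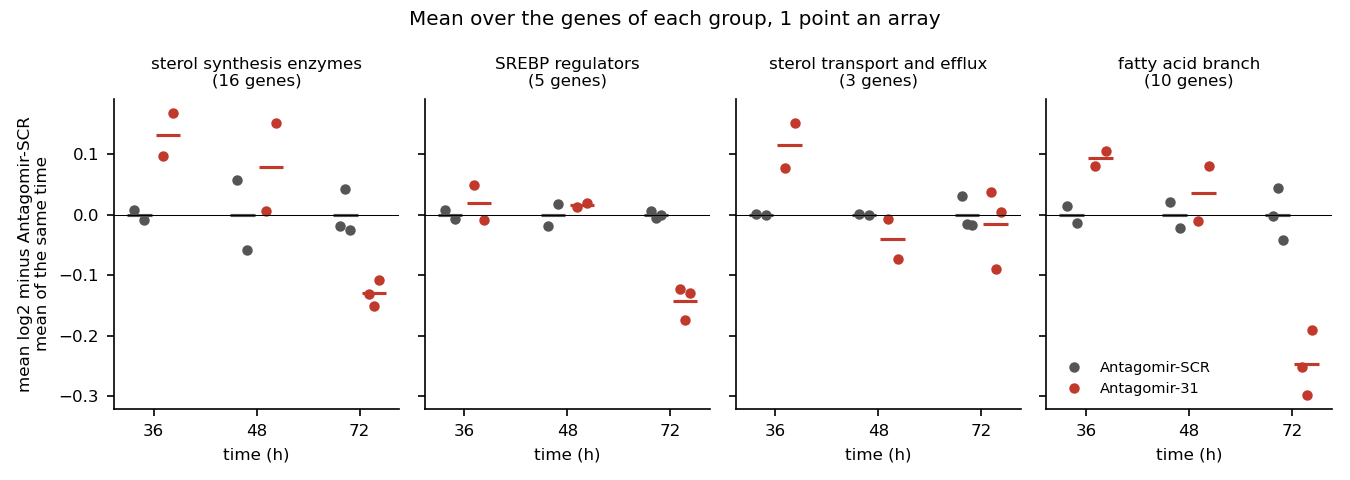
Mean log2 intensity over the genes of each group, minus the Antagomir-SCR mean of the same time (y axis), at 36 h, 48 h and 72 h; each point is 1 array and lines are group means. In the sterol enzymes the Antagomir-31 arrays lie at 0.10 and 0.17 at 36 h and at -0.15 to -0.11 at 72 h. At 48 h they lie at 0.01 and 0.15 and the controls at 0.06 and -0.06, so arrays of 1 group also differ. In the fatty acid branch the Antagomir-31 arrays lie at 0.08 and 0.11 at 36 h, at -0.01 and 0.08 at 48 h and at -0.30 to -0.19 at 72 h.

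Whether the effect at 72 h differed from that at 36 h was tested directly in the same limma fit. No member passed after adjustment, and of all genes 0.00916% were higher and 0.00916% lower. At an unadjusted p under 0.05 the effect was lower at 72 h in 21 of 34 members, against 6.57% of all genes, and in 12 of the 16 sterol enzymes. Fads2 had the largest difference, -0.79 (SE 0.14, adjusted p = 0.085), followed in order of p by Insig1 (-0.43, 0.085), Scd2 (-0.32, 0.092), Elovl6 (-0.54, 0.11) and Sqle (-0.34, 0.13). For 72 h against 48 h, again no member passed, with 0.0183% of all genes higher and 0.0183% lower. There, 15 members were lower at an unadjusted p under 0.05, against 5.36% of all genes, and the smallest p belonged to Elovl6 (-0.61, adjusted p = 0.095), Scd2 (-0.30, 0.15), Sqle (-0.31, 0.21), Srebf2 (-0.30, 0.21) and Nsdhl (-0.40, 0.23). With a prior variance that follows the mean intensity, 8 members passed against 36 h and 2 against 48 h, all lower, while over all genes 20 were higher and 26 lower against 36 h and 7 and 14 against 48 h. Both differences use the same arrays of 72 h, and the controls at each time enter the effect of that time.

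The control time course asks how these genes moved after reactivation without inhibition of miR-31. From 36 h to 72 h, 27 of the 34 members changed in Antagomir-SCR cells on the quantile scale, 14 higher and 13 lower. Such changes were common, with 35.6% of all genes higher and 35.6% lower, so that the number of changed members is near that of the array at large. Time and any batch of the arrays of a time cannot be told apart. On the deposited scale, where the median gene moved by 0.28 from 36 h to 72 h, 20 members were higher and 8 lower, with 6718 and 1860 of all genes. All changes over time below are on the quantile scale.

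Sterol efflux genes moved most. Abca1 had log2 values of 5.39 and 5.71 at 36 h, 6.00 and 6.01 at 48 h and 8.03, 7.92 and 8.12 at 72 h. It rose by 2.47 from 36 h to 72 h (SE 0.15, adjusted p = 8.3e-09), a 5.55-fold increase, with no overlap of the times. Abcg1 had 4.98 and 4.87, then 5.86 and 5.78, then 6.77, 6.83 and 6.72, and rose by 1.85 (SE 0.10, adjusted p = 4.6e-09), or 3.60-fold. Stard4 gave 0.06 (0.47), and its bright probe sets disagreed, with values down to -0.72.

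Of the 16 sterol enzymes, 5 rose from 36 h to 72 h and 9 fell, while Lss and Sqle did not pass the test. Between 36 h and 72 h, Dhcr7, the last reductase of the pathway (0.72), Nsdhl (0.64), Mvd (0.63), Fdps (0.45) and Mvk (0.30) rose. Hsd17b7, which reduces a keto group of the sterol ring (-0.86), Cyp51 (-0.79), Idi1, the isopentenyl diphosphate isomerase (-0.64), Hmgcs1 (-0.57), Sc5d (-0.41), Msmo1, a sterol methyl oxidase (-0.24), Pmvk (-0.22), Fdft1, the squalene synthase (-0.21), and Ebp, a sterol isomerase (-0.18), fell. Of these, Pmvk and Fdft1 turned positive on the deposited scale, at 0.12 and 0.02, and Fdft1 also when probe sets that may bind related transcripts were left out, at 0.05. On the deposited scale Msmo1 (-0.04) and Ebp (0.00) did not pass either. Leaving out Antagomir-SCR 36 h replicate 2 ended the calls of Mvk (0.16), Msmo1, Pmvk, Ebp and Fdft1. Those of Ebp and Fdft1 were also lost without 36 h replicate 1, that of Ebp without 72 h replicate 2, and that of Fdft1 without 72 h replicate 3 or 4 or with the highest probe set on each array (-0.11). Pmvk did not pass after median centring. Cyp51 had log2 values of 10.3 and 10.3 at 36 h, 10.3 and 10.3 at 48 h and 9.57, 9.49 and 9.43 at 72 h. It stood level until 48 h and lay lower on each 72 h array. The median over the 16 enzymes was -0.20, and 0.07 on the deposited scale. Sc5d has another bright probe set with a value of 2.23, opposite to the brightest, and Fdft1 also has bright probe sets that disagree. Those of Lss ran from 0.05 to 0.92.

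Among the regulators, Scap rose (0.45), whereas Insig2 (-0.65), Insig1 (-0.48) and Srebf1 (-0.14) fell; Srebf1 turned to 0.10 on the deposited scale and was lost without Antagomir-SCR 36 h replicate 1, without any single 72 h array or without the filter on dim genes. Insig1 had log2 values of 8.40 and 8.45 at 36 h, 8.55 and 8.39 at 48 h and 7.87, 8.04 and 7.92 at 72 h. The 72 h arrays lay below all earlier ones. Srebf2 gave -0.09 (adjusted p = 0.097), and its other bright probe set 0.49.

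In the fatty acid branch 6 of 10 genes rose from 36 h to 72 h and 1 fell. Elovl6 (0.78), Scd1 (0.74), Fasn (0.70), Scd2 (0.63), Elovl5 (0.37) and Acly (0.25) rose and Acsl3 (-0.80) fell. Scd1 had log2 values of 7.53 and 7.41 at 36 h, 8.42 and 8.40 at 48 h and 8.17, 8.43 and 8.03 at 72 h. Its increase was in place by 48 h. Its other bright probe set gave -0.28 over the same interval. Acaca gave -0.12, Fads1 -0.17 and Fads2 0.08, and these did not pass the test, but on the deposited scale Fads2 was higher at 72 h, by 0.44 (adjusted p = 0.0011). The branch median was 0.31, and 0.49 on the deposited scale, against -0.20 in the sterol enzymes; the difference between the branches was not tested.

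**Figure D4:**
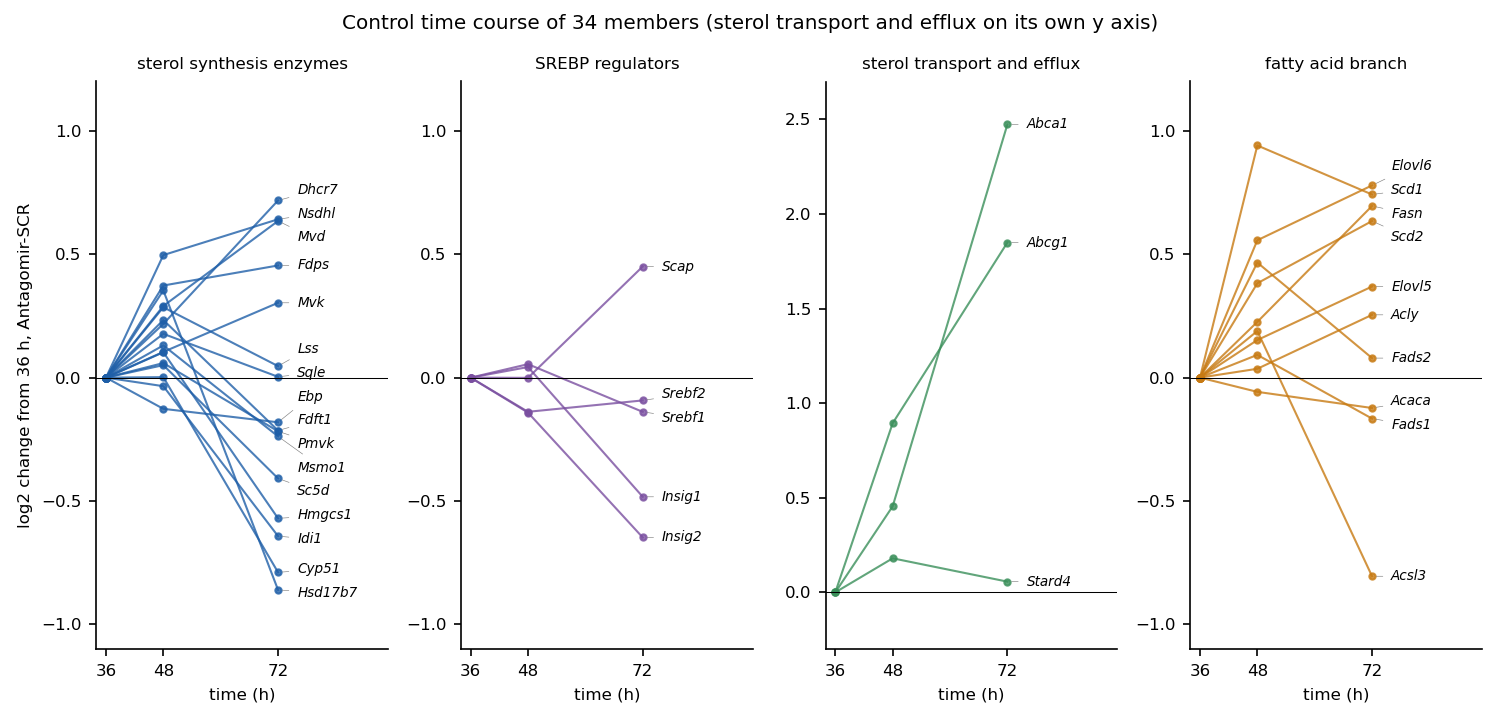
Log2 change from 36 h (y axis) of each member in Antagomir-SCR cells at 48 h and 72 h, on the quantile scale, by group of genes; each line is 1 gene and the transport panel has its own axis. Most lines rise to 48 h, after which Hsd17b7, Acsl3, Cyp51 and Idi1 descend while Abca1 and Abcg1 climb to 2.47 and 1.85.

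By interval, 12 members rose from 36 h to 48 h and none fell, beside 15.5% of all genes higher and 11.4% lower. Over all genes, 1696 rose and 1243 fell, and this split was 1223 and 2040 on the deposited scale and 2509 and 861 after median centring. On the deposited scale 11 members were higher and 3 lower. The 12 were Scd1 (0.94), Abcg1 (0.89), Elovl6 (0.56), Nsdhl (0.50), Fads2 (0.47), Scd2 (0.38), Fdps (0.37), Hsd17b7 (0.35), Mvd (0.29), Lss (0.29), Fasn (0.23) and Sqle (0.18). Scd1, Abcg1, Elovl6, Nsdhl and Scd2 passed under every alternative run, and each of the other 7 was lost without at least 1 control array. The count was 7 without Antagomir-SCR 36 h replicate 2 and 6 without Antagomir-SCR 48 h replicate 1.

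From 48 h to 72 h, 10 members rose and 16 fell, beside 33.1% of all genes higher and 34.9% lower. On the deposited scale 17 members were higher and 8 lower, with 7279 and 1539 of all genes. Abca1 (2.02), Abcg1 (0.95), Dhcr7 (0.50), Fasn (0.47), Scap (0.45), Mvd (0.34), Scd2 (0.25), Elovl6 (0.22), Acly (0.22) and Elovl5 (0.22) rose. Hsd17b7 (-1.21), Acsl3 (-0.99), Cyp51 (-0.79), Hmgcs1 (-0.67), Idi1 (-0.61), Insig1 (-0.53), Insig2 (-0.51), Sc5d (-0.46), Fdft1 (-0.45), Fads2 (-0.39) and Msmo1 (-0.37) fell. Smaller declines of Pmvk (-0.28), Fads1 (-0.26), Lss (-0.24), Srebf1 (-0.19) and Sqle (-0.17) turned positive on the deposited scale, at 0.08 to 0.14. Fads2 (0.00), Msmo1 (-0.11) and Fdft1 (-0.17) no longer passed on that scale. After median centring Scd2, Acly, Elovl5 and Fads1 did not pass. Leaving out Antagomir-SCR 48 h replicate 2 took Elovl6 from 0.22 to 0.07 and ended its call and those of Fads1 and Srebf1. Without 48 h replicate 1 Lss, Sqle and Fads1 were lost, and without 72 h replicate 4 Elovl6 and Fads1. Hsd17b7 had log2 values of 8.28 and 8.15 at 36 h, 8.59 and 8.55 at 48 h and 7.47, 7.35 and 7.25 at 72 h, the steepest decline of a member in this interval. On the quantile scale Fads2 and Sqle rose and then fell, and their values for 72 h against 36 h were 0.08 and 0.00. Neither fell from 48 h to 72 h on the deposited scale.

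In cells with Antagomir-31, 27 members also changed from 36 h to 72 h, 10 higher and 17 lower, beside 35.5% of all genes higher and 34.3% lower. Scd1 had log2 values of 7.47 and 7.77 at 36 h and 7.60, 7.50 and 7.85 at 72 h with Antagomir-31, a change of 0.03 beside 0.74 in control cells. Insig1 fell by 0.90 beside 0.48, and Fads2 by 0.67 beside a control value of 0.08. Elovl6 rose by 0.26 beside 0.78 and Scd2 by 0.29 beside 0.63. These pairs of values restate, on the quantile scale, the differences of effect tested above. No member passed that test, Scd1 included, whose difference was not among those printed. Abcg1 rose by 1.85 in both treatments and Scap by 0.44 beside 0.45. The median of the fatty acid branch was 0.01 beside 0.31, and that of the sterol enzymes -0.36 beside -0.20.

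**Figure D5:**
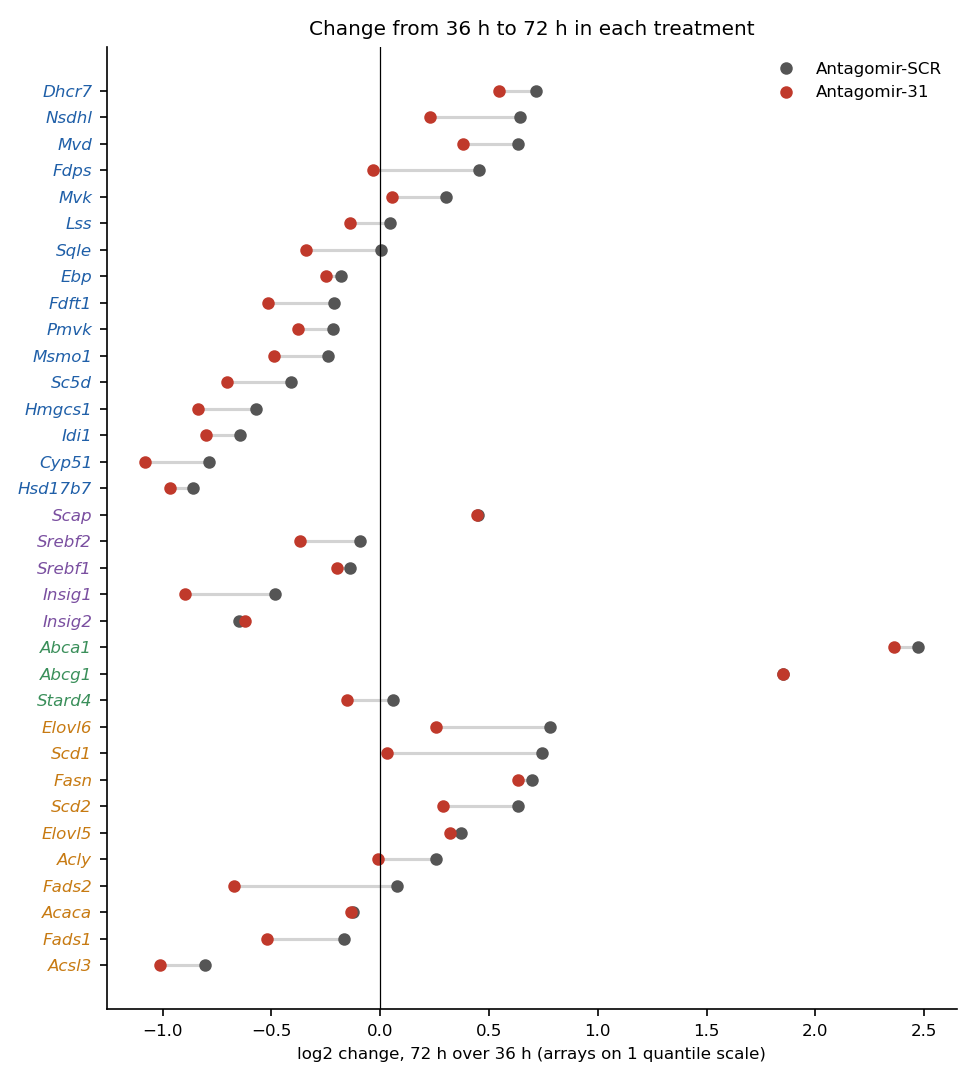
Log2 change from 36 h to 72 h (x axis, quantile scale) of each member in Antagomir-SCR and Antagomir-31 cells, with label colours by group of genes as sterol enzymes (blue), regulators (purple), transport (green) and fatty acid branch (orange). The Antagomir-31 point lies left of the control point in most members, with wide gaps in Fads2 (-0.67 and 0.08) and Scd1 (0.03 and 0.74), and the points nearly coincide in Scap and Abcg1.

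Other genes of the same pathways were taken from 2 further lists. Of 22 other sterol and SREBP pathway genes tested, none passed between treatments at 72 h, 15 had a log2 fold change below 0 (53.8% of all genes), 2 were lower at an unadjusted p under 0.05 (10.6% of all genes), and the median was -0.02. Of 23 other fatty acid synthesis genes tested, none passed, 12 were below 0, 3 were lower and 2 higher at an unadjusted p under 0.05 (1156 and 781 of 10916 genes), and the median was -0.03. The shares at an unadjusted p are near those of the array at large. The smallest p belonged to Acacb, the mitochondrial acetyl-CoA carboxylase (-0.27, adjusted p = 0.12), Acss2, an acetyl-CoA synthetase (-0.25, 0.12), Lpin1, a phosphatidate phosphatase (-0.14, 0.12), and Aacs, an acetoacetyl-CoA synthetase (-0.13, 0.20). At 48 h, 6 of the 23 fatty acid genes were higher and 1 lower at an unadjusted p under 0.05 (275 and 379 of 10916 genes). None of the 22 sterol and SREBP genes was higher or lower by that measure. Both Antagomir-31 arrays lay above both controls in 9 of the 23 (13.5% of all genes) and below them in 5 (19.7%). From 36 h to 72 h in control cells, 13 of the 22 sterol and SREBP genes rose and 5 fell, beside 35.6% of all genes in each direction. Tm7sf2, a sterol reductase, rose by 0.81 and Stard3, a late endosomal sterol carrier, fell by 1.15. Erlin1, Mbtps1, Osbpl1a, Aacs, Ggps1, Lbr, Rxrb, Npc2, Mylip, Tmem97, Abca7 and Npc1 rose by 0.65 to 0.14, and Osbp, Lipa, Ufd1 and Erlin2 gave -0.44 to -0.27 and fell. Of the 23 fatty acid genes, 8 rose and 9 fell, with the same shares over all genes. Acsl6, an acyl-CoA synthetase, had deposited linear intensities of 844 and 869 at 36 h, 769 and 808 at 48 h and 30.6, 25.8 and 23.1 at 72 h. On the quantile scale Acsl6 fell by 5.26. Lpin1 rose by 1.46 and Me1, the cytosolic malic enzyme, by 1.32. Acsl5, Acss2, Tecr, Dgat1, Hacd2 and Lpcat3 rose by 0.73 to 0.30, and Hacd1, Pnpla8, Dgat2, Hacd3, Acsl4, Elovl1, Gpam and Hsd17b12 gave -0.98 to -0.19 and fell. Further bright probe sets of Elovl1 gave 0.33, -0.40 and -0.72.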

How the data were processed

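RNA of 14 samples was hybridised to Affymetrix Mouse 430_2 arrays. Per the labels, the authors used GCOS, then RMA in the affy package for R (versions not given in the sources used here), and the deposited intensity values are linear. Of 45101 probe sets, 64 controls, 932 with several gene symbols and 9160 with none were left out, and 34945 with 1 symbol gave 18193 genes, each read from the probe set with the highest mean log2. Log2 of the deposited intensity was taken. limma 3.58.1 (R 4.3.3; tables in Python 3.11.15) was fitted to the brightest 60% of genes (10916), as 1 model of 6 groups, with Benjamini-Hochberg adjustment over all genes tested and a threshold of 0.05. Treatments were compared within a time on the deposited scale, and times after quantile normalization over the 14 arrays. Precision is limited by how few arrays there were, with a median SE (log2) of 0.07 for both early times and 0.06 for 72 h. The brightest probe set of 6 members ends in _x_at or _s_at and may bind related transcripts. Of 19 members with over 1 bright probe set, all of them shared 1 direction in 11 at 72 h (not in Hmgcs1, Idi1, Fdft1, Insig2, Stard4, Acly, Elovl5 and Fads1) and in 14 from 36 h to 72 h.

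Members passing the threshold, and otherwise the 5 with the smallest p, were named in each comparison of treatments, of effects and of control times. In cells with Antagomir-31 only some of the changed members were named. From the other pathway lists, genes past the threshold and otherwise at most the 4 with the smallest p were named. This was done only between treatments at 72 h and from 36 h to 72 h in control cells. The members and all lists were chosen with earlier results of these data known. Alternatives changed the probe set, filter, normalization, samples, variance prior and replicate block, and left out each array in turn. The fit was tested on simulated data. No 2 arrays held identical values. Groups were taken from the sample labels. MAS5 calls were not used here.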

Additional observations from a re-analysis of the deposited data

How the results depend on the processing

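The counts of members called at 36 h and 48 h stayed at 0 under every alternative run. The 7 members called at 72 h became 0 without the filter on low values, 12 with a stricter filter (mean log2 of 6 or more), 1 with only the groups compared in the fit, 13 with a prior variance that follows intensity and 0 with the replicate block. Leaving out 1 array at a time gave 0 to 8 members. It gave 0 without Antagomir-31 72 h replicate 2 or 3 or Antagomir-SCR 72 h replicate 3. The 7 calls each held under 16 to 18 of 24 alternatives, with no change of sign: Sqle was also lost without Antagomir-SCR 72 h replicate 4, Srebf2 without replicate 2 or 4, Scd1 without replicate 2 and Elovl6 without replicate 4 of that group. Alternatives that left out an array of 36 h or 48 h could not change the fold change at 72 h, so holding under them says little. Members whose effect at 72 h differed from 36 h numbered 3 with the stricter filter and 8 with that prior. Those that differed from 48 h numbered 1 and 2, and 0 to 1 with 1 array left out. Members changed from 36 h to 48 h in control cells numbered 6 to 14 with 1 array left out. The medians from 36 h to 72 h became 0.0723 for sterol genes and 0.49 for fatty acid genes on the deposited scale, and -0.0888 for sterol genes without _x_at and _s_at probe sets. On the deposited scale the change from 48 h to 72 h reversed for Pmvk (0.10), Sqle (0.0782), Lss (0.10), Srebf1 (0.0906) and Fads1 (0.14), and that from 36 h to 72 h for Pmvk (0.12), Fdft1 (0.0195) and Srebf1 (0.10). Without _x_at and _s_at probe sets it reversed for Lss from 48 h to 72 h (0.29) and for Fdft1 from 36 h to 72 h (0.0536). The cause of these shifts was not tested.

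Same-numbered arrays of the treatments did not deviate together (r of 0.05 at 36 h, -0.16 at 48 h and -0.07 to 0.05 at 72 h), so the numbers were not taken as pairs, and the replicate block ended the calls of Mvd, Elovl6, Fads1 and Srebf1 from 48 h to 72 h and of Fdft1 and Srebf1 from 36 h to 72 h. It left 22 members changed from 48 h to 72 h and 25 from 36 h to 72 h. A crossed block at 48 h, chosen after seeing the data, called 0 members at 48 h. The precision is limited by 2 or 3 arrays a group.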
